A study of Mus musculus with 48 samples.

Results

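Transcript levels in the developing mouse hypothalamus and preoptic area were compared between embryonic days 13 and 14 (E13 and E14) and E12, on 11 of the 48 microarrays of a study that followed this region over 12 ages. The E12 group held 4 arrays, 1 of each sex from the inbred strain C57Bl/6 and from the outbred stock CD-1. E13 held the same 4 combinations. E14 held 3 arrays, a C57Bl/6 male and a CD-1 female and male, because the C57Bl/6 female was left out by a rule on Col3a1, a fibroblast collagen gene whose signal there passed 1000. The labels name no mutation, transgene or drug for any of these arrays, and all animals had ordinary chow and a regular light cycle. No label gives the number of embryos behind an array, so the p-values below measure how single arrays scatter, which may be partly technical.

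Neurons of the hypothalamus are born from progenitor cells that line the third ventricle. A dividing progenitor copies its DNA with the licensing and replication machinery and then passes through mitosis, and Notch signalling between neighbours keeps some cells in the progenitor state while others switch on proneural transcription factors and leave the cell cycle. A cell that has left builds an axon, and later the synaptic proteins, channels, receptors and secreted peptides by which hypothalamic nuclei are told apart. The days around E12 to E14 are known as the main period of neuron birth in this region, and the comparison asks what differs between its start and its later days.

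The values are MAS5 signal, a linear measure of array brightness for each probe set. Levels are given as signal, as mean ± SD of the 4 E12 or the 7 later arrays, and changes as log2 of signal + 16 with the SE of the fit, later minus E12. The added 16 shrinks the fold changes of dim genes, so their size depends on it, and a dim signal may be background. Values of single arrays stand in the order C57Bl/6 female, C57Bl/6 male, CD-1 female and CD-1 male, and at E14 they begin with the C57Bl/6 male. A gene was called, and is said to have risen or fallen, when its adjusted p in limma was under 0.05 over all 13689 genes tested. In whole tissue, fewer cells of a type and less RNA per cell cannot be told apart.

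Markers of the labelled tissue were looked at first. All 12 hypothalamic transcription factors looked for were tested. Their summed signal lay between 3941 and 6745 at E12 and between 4270 and 6632 later. Otp alone gave between 1948 and 3538 of it. Rax, another of the 12, lay between 14.4 and 36.5 in the CD-1 arrays, below their medians of 47.05 to 57.02. No list of any tissue had a member at 0, so a signal above 0 does not show that a tissue was present. Markers of other tissues differed between strains or arrays. Genes of the cerebral cortex summed to 214 and 280 in the C57Bl/6 E12 arrays against 891 and 919 in the CD-1 ones. The 13 genes of mesenchyme and meninges summed to 3215 and 4630 in the C57Bl/6 E12 arrays, to between 1324 and 1579 in the CD-1 E12 arrays, to between 1201 and 1820 in the 7 later ones and to 12641 in the array left out. Of these 13 genes 1 was called lower, fibronectin (Fn1), at -0.59 ± 0.11 (adjusted p = 0.0415), which lost its call with the left-out array (-0.44, adjusted p = 0.225), and the list's median log2 change was -0.53. Of 5 red blood cell genes 2 fell, both of them globins of the embryonic blood. Hbb-bh1 gave signals of 3693, 8141, 667 and 196 at E12 and between 43 and 357 later, a log2 change of -3.11 ± 0.53 (adjusted p = 0.04, limma). Hba-x changed by -1.41 ± 0.26 (adjusted p = 0.04). Of 10 blood vessel genes 1 rose, the pericyte gene Rgs5, by 0.69 ± 0.16 (adjusted p = 0.0446), and of 8 microglial genes none was called. The part of these cell types in the results below was not tested. The plot of marker levels shows them array by array.

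**Figure D1:**
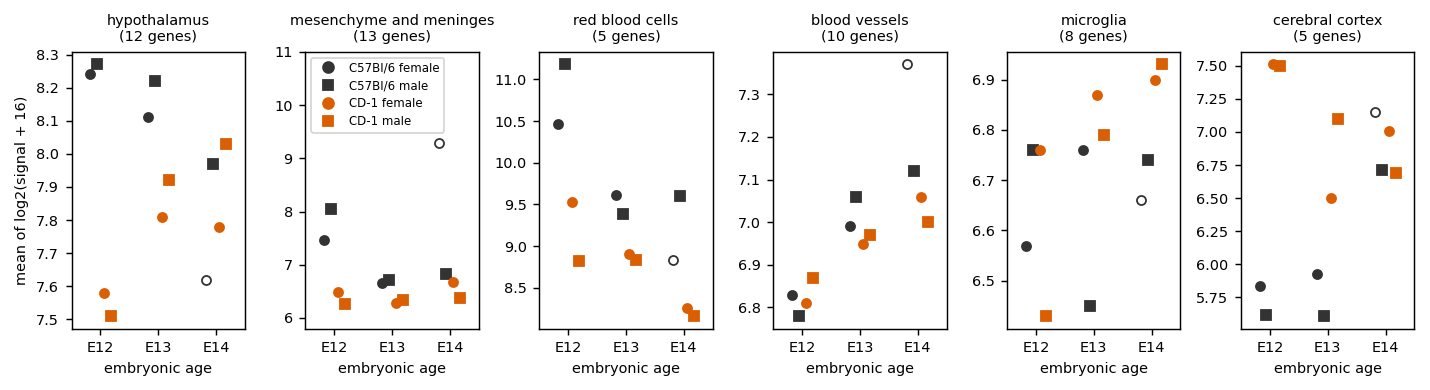
Mean log2(signal + 16) of 6 marker lists (vertical axes) in each array at E12, E13 and E14 (horizontal axes); the open circle is the C57Bl/6 E14 female that was left out. Mesenchyme genes reach 7.46 and 8.05 in the C57Bl/6 E12 arrays and 9.28 in the left-out array, and lie between 6.26 and 6.83 in the others.

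A single E12 array stood apart. The CD-1 E12 male correlated with the CD-1 E13 arrays at r = 0.974 and 0.975 across genes, which are not independent replicates, and with the CD-1 E12 female at 0.960. Its mean level of the 29 cell cycle genes described below was 8.78 on the log2 scale, against 9.32 to 9.46 in the other 3 E12 arrays and 8.60 to 8.86 at E13. Levels of Xist and of the Y-linked Eif2s3y matched the labelled sex in all 12 arrays.

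Between E12 and the later days 351 genes were called, 2.56% of those tested, of which 189 rose (1.38%) and 162 fell (1.18%). The median log2 change of all genes was 0.02. Among called genes 31 fell by at least 2-fold (0.226% of those tested) and 18 rose as far (0.131%), together 0.358%, and the median change of a called gene was 1.64-fold. Without regard to a test, the groups did not overlap for 2.35% of genes, 139 (1.02%) being higher and 183 (1.34%) lower in all 7 later arrays than in all 4 E12 arrays. The sign was the same within C57Bl/6 and within CD-1 for 351 of the 351 called genes. They were called on these same arrays, so this agreement is no separate support. By the fitted values alone, 185 of the 189 rises and 154 of the 162 falls had E13 between E12 and E14. Calling a gene on the pooled shift of both days from E12 itself favours E13 on the later side of E12. These counts are therefore no separate support for a graded course. The share over all genes was not counted, and 49 of the 351 were also called between E13 and E14.

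The number of calls was not stable. The adjusted p-values of the called genes lay between 0.04 and the threshold of 0.05. Without the CD-1 E12 male, 1579 genes were called, 11.5% of those tested (5.35% rises and 6.19% falls), among them 346 of the 351. With the array that was left out 598 were called, or 4.37% (2.43% rises and 1.94% falls). Without the C57Bl/6 E12 female, the C57Bl/6 E12 male, the CD-1 E12 female, the CD-1 E14 female or the CD-1 E14 male no gene was called by limma, while between 2126 and 2672 genes still had an unadjusted p under 0.05, against 3068 with all 11 arrays (22.4%). Without the C57Bl/6 E14 male 228 were called. In each of these fits 351 of the 351 genes kept the sign of their change. The fits share most arrays with the one that called the genes, so the kept signs are no separate support. Each call below carries this limit. Counts of pooled calls in a list stand against 1.38% rises and 1.18% falls among all genes tested.

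Of 29 tested cell cycle genes 10 fell and none rose, against 1.18% and 1.38% of all genes. All 29 had a negative change, from -1.30 to -0.15 with a median of -0.87. Of them 9 were lower in every later array than in every E12 array, against 1.34% of all genes. Without the CD-1 E12 male 22 of the 29 fell, against 6.19% of all genes. In a fit of the 3 ages, 25 fell between E12 and E14, against 7.39% of all genes, and 16 fell between E13 and E14, against 0.92%. The 10 called genes were Plk1, Top2a, Mcm5, Mcm3, Cdt1, Mki67 and, named after their values were seen, the cyclins Ccna2 (-0.93) and Ccnd2 (-0.72), the replication clamp Pcna (-0.86) and the transcription factor E2f1 (-0.79). The plot of changes by gene list sets these genes beside the others.

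**Figure D2:**
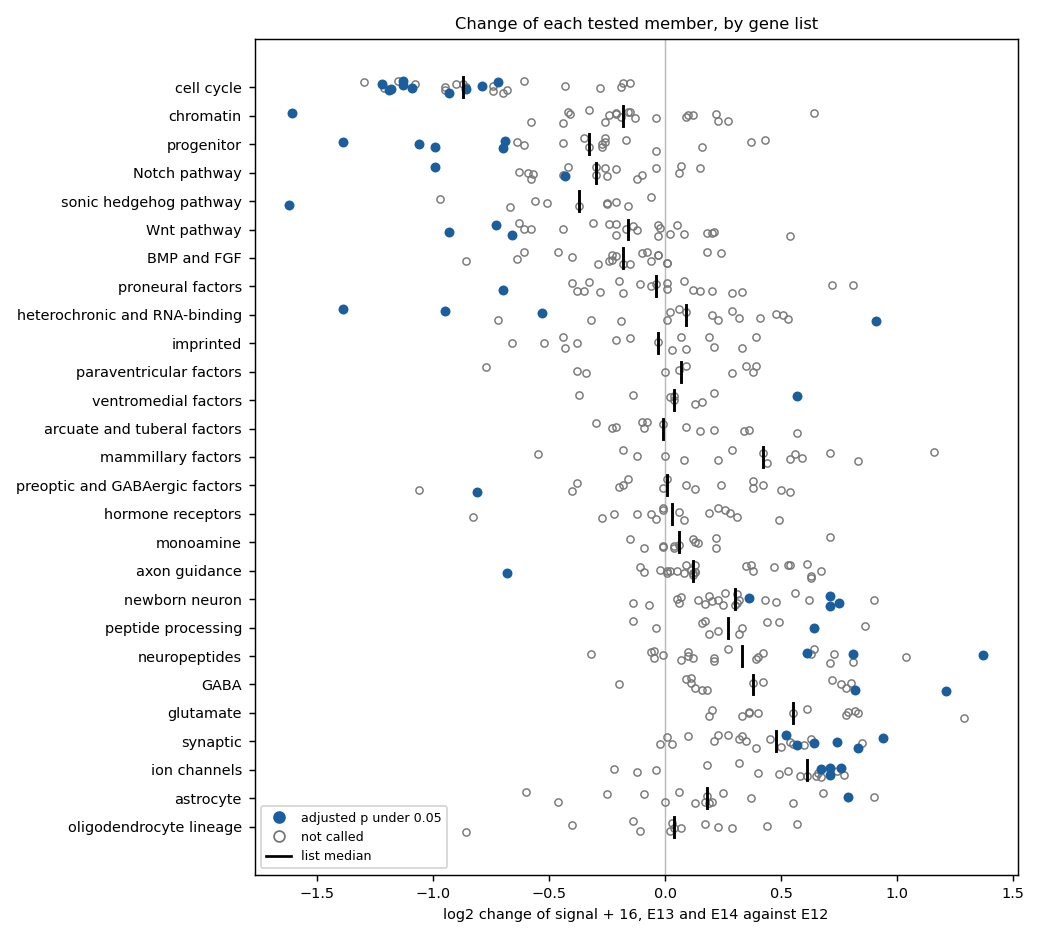
Log2 change of each tested gene, E13 and E14 against E12 (horizontal axis), by gene list (vertical axis); filled points were called, and bars mark list medians. The cell cycle list has a median of -0.87, the synaptic list 0.48 and the ion channel list 0.61, against 0.02 over all genes.

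Pole, the catalytic subunit of DNA polymerase epsilon, was outside the list and is named for the size of its fall. It gave signals of 129, 145, 92.3 and 136 at E12, of 50.1, 27.1, 17.9 and 66 at E13 and of 3.92, 15 and 4.63 at E14. Its groups did not overlap, and the log2 change was -1.89 ± 0.35 (adjusted p = 0.04). The E14 signals were far below the array medians of 55.31 to 69.16, so the probe set was not shown to be above background there, and the size of the change depends on the added constant, at -2.72 with 1, where it just missed the threshold, and -1.09 with 64. Mcm3, a subunit of the replicative helicase, fell from 623, 614, 512 and 392 at E12 to 353, 366, 313 and 231 at E13 and to 142, 161 and 141 at E14. Each age was below the one before it in every array, and the change was -1.13 ± 0.24 (adjusted p = 0.0428). Cdt1, which loads that helicase onto origins, fell by 1.13 ± 0.23 (adjusted p = 0.0415), and Mcm5, another helicase subunit, by 1.18 ± 0.27 (adjusted p = 0.0465). The CD-1 E12 male, at 501, was the lowest of the E12 arrays for Mcm5, the other 3 lying between 957 and 1056.

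Plk1, a kinase of mitotic entry and exit, gave 387, 453, 512 and 376 at E12, then 210, 178, 327 and 242, then 137, 142 and 85. The highest later array, the CD-1 E13 female, was below the lowest E12 array, and the change was -1.22 ± 0.26 (adjusted p = 0.0428). Cenpa, the histone variant that marks centromeres and a gene outside the list, changed by -1.21 ± 0.26 (adjusted p = 0.0428). Other mitotic genes of the list did not pass, such as the kinase Aurka (-0.90 ± 0.24, adjusted p = 0.0577) and the checkpoint gene Bub1b (-1.21 ± 0.32, adjusted p = 0.055). Cenpi, another centromere protein outside the list and named for the size of its fall, averaged 69.7 ± 15 at E12 (n = 4) and 15.6 ± 12.1 later (n = 7), a change of -1.52 ± 0.22 (adjusted p = 0.04). Its later signals were all below their array's median, so the probe set was not shown to be above background there. Across the alternative fits described below the Cenpi change ran from -2.33 to -0.77. The kinesin Kif20a, also named for the size of its fall, fell by 1.11 ± 0.28 (adjusted p = 0.05, just under the threshold before rounding). Top2a, the topoisomerase of dividing cells, went from 1408 ± 424 to 627 ± 291, and Mki67, the proliferation antigen, from 1267 ± 619 to 590 ± 382. Both fell, by 1.19 ± 0.26 (adjusted p = 0.0428) and 1.09 ± 0.27 (adjusted p = 0.049), although the later range overlapped that of E12.

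Another probe set of Cenpa, dim at a mean signal of 53.7, had a change of 0.34 ± 0.19 (adjusted p = 0.348), opposite in sign to the brighter one, and a further one, at a mean signal of 54.2, of -0.51 ± 0.33 (adjusted p = 0.438).

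The promoter windows of 4 of these genes are shown. The 4 have roles in replication or mitosis, and their windows were chosen for holding letters known from cell cycle promoters. The windows are those of RefSeq on build GRCm38.p6, from 250 bases before to 50 after a gene's start. They are chr7:122159185-122159484 on the plus strand for Plk1, chr5:30666636-30666935 on the plus strand for Cenpa, chr1:20820263-20820562 on the minus strand for Mcm3 and chr8:122567765-122568064 on the plus strand for Cdt1. Capitals mark 3 motifs on either strand: the CHR element (TTTGAA), the CCAAT box (CCAAT) and E2F sites (TTTCCCGC, TTTGGCGC, TTTCGCGC or TTTGCCGC). A match is a match of letters and no evidence of binding.
Plk1: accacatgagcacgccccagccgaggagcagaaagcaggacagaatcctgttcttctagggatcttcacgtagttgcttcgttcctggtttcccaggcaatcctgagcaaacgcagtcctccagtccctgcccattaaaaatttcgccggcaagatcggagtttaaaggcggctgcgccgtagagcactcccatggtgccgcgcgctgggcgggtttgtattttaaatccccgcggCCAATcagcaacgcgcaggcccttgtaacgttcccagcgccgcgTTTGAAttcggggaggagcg
Cenpa: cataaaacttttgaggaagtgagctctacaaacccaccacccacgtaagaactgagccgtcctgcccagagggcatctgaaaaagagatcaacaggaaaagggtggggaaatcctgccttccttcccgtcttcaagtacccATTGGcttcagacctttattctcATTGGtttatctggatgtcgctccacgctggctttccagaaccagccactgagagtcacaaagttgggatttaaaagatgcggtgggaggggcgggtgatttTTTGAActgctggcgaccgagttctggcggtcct
Mcm3: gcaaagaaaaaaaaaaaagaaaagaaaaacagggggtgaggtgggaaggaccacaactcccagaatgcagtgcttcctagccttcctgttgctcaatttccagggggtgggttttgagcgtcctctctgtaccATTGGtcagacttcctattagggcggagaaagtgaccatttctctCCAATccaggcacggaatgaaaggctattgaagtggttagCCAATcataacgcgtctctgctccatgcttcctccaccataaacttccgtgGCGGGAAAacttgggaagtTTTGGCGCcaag
Cdt1: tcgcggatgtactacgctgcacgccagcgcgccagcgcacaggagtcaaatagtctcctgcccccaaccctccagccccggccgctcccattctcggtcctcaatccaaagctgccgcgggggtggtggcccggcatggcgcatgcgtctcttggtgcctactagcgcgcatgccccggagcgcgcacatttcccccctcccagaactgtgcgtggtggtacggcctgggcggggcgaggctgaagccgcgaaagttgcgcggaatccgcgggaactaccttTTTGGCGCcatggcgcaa

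In the Plk1 window a CHR element began 31 bases after the start and a CCAAT box 14 bases before it. The Cenpa window held a CHR element 17 bases after the start and 2 CCAAT boxes on the other strand, which are printed as ATTGG, and neither window held an E2F site. The Mcm3 window held 2 E2F sites, 20 and 39 bases after the start, and 3 CCAAT boxes. The Cdt1 window held 1 E2F site, 33 bases after the start, and neither window held a CHR element. Counted over the genes with a window, an E2F site stood in 13.7% of 139 called falls, 3.38% of 148 called rises and 4.33% of 11011 tested genes. A CHR element stood in 23% of the falls, 11.5% of the rises and 14.4% of tested genes, and a CCAAT box in 60.4%, 41.9% and 42.7%. These shares are a description of windows of the same length, and no test was made on them.

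Of 22 tested chromatin genes 1 fell, none rose, and the median change was -0.18. That gene was Uhrf1, which brings the maintenance methyltransferase to newly copied DNA. It gave 1038, 1065, 802 and 453 at E12, then 443, 398, 305 and 343, then 128, 168 and 120. The later arrays all lay below E12, the CD-1 E12 male being the nearest to them, and the change was -1.61 ± 0.32 (adjusted p = 0.0415). The polycomb methyltransferase Ezh2 had a change of -0.58 ± 0.15 that did not pass (adjusted p = 0.0525). Actl6a and Actl6b, the progenitor and neuron forms of a chromatin remodeller subunit, had changes of -0.42 ± 0.20 and 0.64 ± 0.25 (adjusted p = 0.223 and 0.145). Both passed for E14 against E12 in the 3-age fit, at -0.81 ± 0.16 (adjusted p = 0.00363) and 0.89 ± 0.29 (adjusted p = 0.0479).

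**Figure D3:**
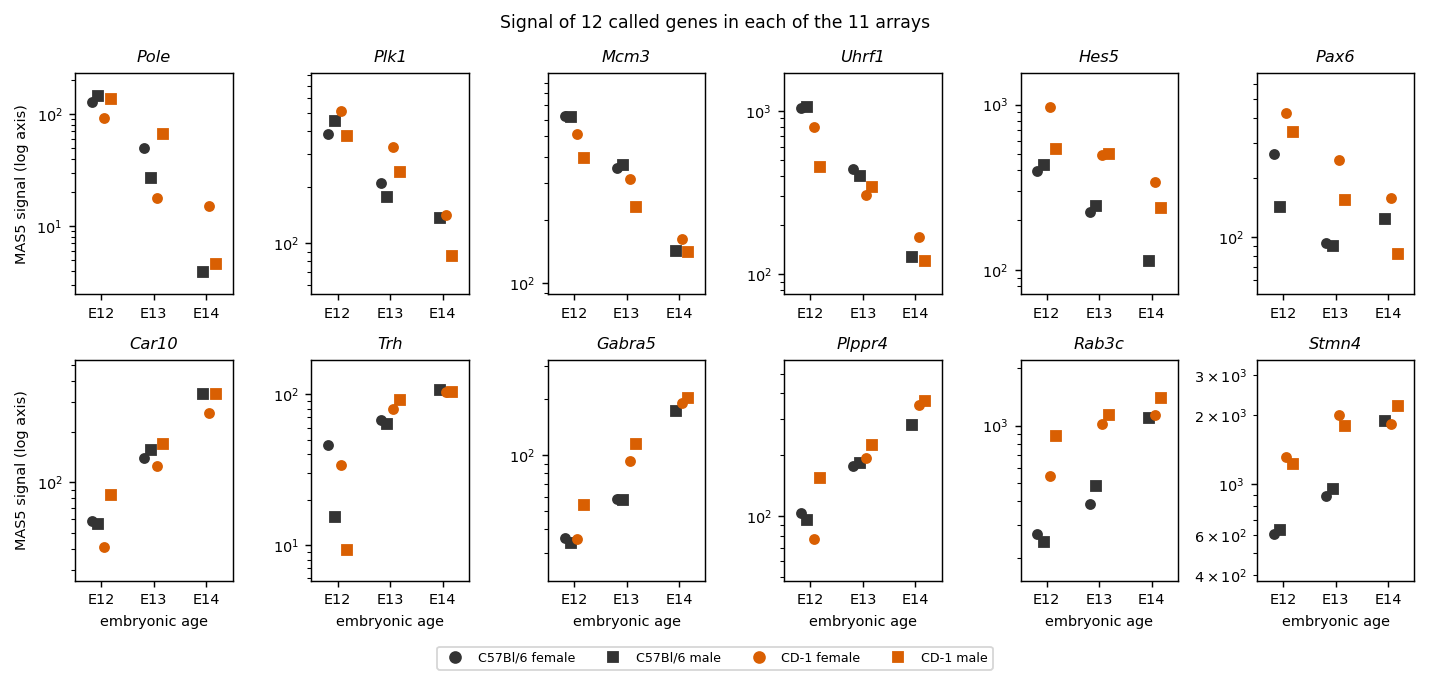
MAS5 signal (vertical axes, log scale) of 12 called genes in each of the 11 arrays at E12, E13 and E14 (horizontal axes), with strain as colour and sex as symbol. In the upper row Pole runs from between 92.3 and 145 at E12 to between 3.92 and 15 at E14, and in the lower row Car10 runs from between 41.2 and 84.3 to between 258 and 338.

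Of 19 tested progenitor genes 5 fell and none rose, with a median of -0.33, and without the CD-1 E12 male 8 fell, against 1.18% and 6.19% of all genes. With all 11 arrays the 5 were Hmga2, Pax6, Hes5, Nes and Prom1. Hes5, a Notch target that holds back neuron formation, gave 396, 429, 967 and 537 at E12, then 224, 245, 496 and 502, then 114, 341 and 236. The ranges overlapped between strains, CD-1 being higher than C57Bl/6 at each age, and within each strain every later array was below E12. The change was -0.99 ± 0.23 (adjusted p = 0.0465). Pax6, a transcription factor of ventricular progenitors, went from 293 ± 121 to 135 ± 57.2, a change of -1.06 ± 0.23 (adjusted p = 0.0428). Another probe set of Pax6, with a mean signal of 55.6, had a change of 0.12 ± 0.18 (adjusted p = 0.773), and a further one, with a mean signal of 66.1, of -0.86 ± 0.25 (adjusted p = 0.0964). Nes, the intermediate filament of progenitors, fell by 0.70 ± 0.16 (adjusted p = 0.045). Another probe set of Nes, with a mean signal of 194, had a change of -0.24 ± 0.12 (adjusted p = 0.317). Prom1, a membrane protein of the apical surface of progenitors, fell by 0.69 ± 0.15 (adjusted p = 0.0428). Prom1 was named after its values were seen. Sox2, which most neural progenitors express, had a change of -0.17 ± 0.15 (adjusted p = 0.535), and the radial glia gene Fabp7 of 0.16 ± 0.11 (adjusted p = 0.391).

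Hmga2, a chromatin protein of young stem cells, is also a member of the list of heterochronic and RNA-binding genes. It gave 1214, 1932, 1286 and 864 at E12, 645, 878, 714 and 552 at E13 and 225, 296 and 311 at E14. The groups overlapped where the CD-1 E12 male lay below the C57Bl/6 E13 male, and the change was -1.39 ± 0.32 (adjusted p = 0.0446). With the left-out array, where Hmga2 stood at 1158, the change was -1.26 (adjusted p = 0.0508). Igf2bp1, an RNA-binding protein of embryonic cells, fell by 0.95 ± 0.23 (adjusted p = 0.0488), and Lin28a, dim at 36.4 ± 10.7 and 16.2 ± 11.1, had a change of -0.72 ± 0.24 (adjusted p = 0.106). Ptbp1, the splicing repressor of dividing cells, fell by 0.53 ± 0.11 (adjusted p = 0.0425), and its neuronal relative Ptbp2 had a change of -0.19 ± 0.09 (adjusted p = 0.206). A second bright probe set of Ptbp1 had a change of 0.15 ± 0.10 (adjusted p = 0.483), and a dim one of -0.21 ± 0.26 (adjusted p = 0.719). Rbfox1, a splicing regulator of neurons, rose by 0.91 ± 0.20 (adjusted p = 0.0428). In the list of 19 heterochronic and RNA-binding genes these were the 3 falls and the 1 rise.

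Of 19 tested Notch pathway genes 2 fell, against 1.18% of all genes, and none rose. The falls were Hes5 and the coactivator Maml1 (-0.43 ± 0.11, adjusted p = 0.0488). Another probe set of Maml1, with a mean signal of 96, had a change of -0.12 ± 0.14 (adjusted p = 0.689). The ligand Dll1 stood at 917, 1110, 1199 and 905 at E12, at 842, 769, 824 and 756 at E13 and at 422, 586 and 536 at E14. Its groups did not overlap, yet the pooled change of -0.63 ± 0.17 missed the threshold (adjusted p = 0.0614), while the fall from E12 to E14 passed it (adjusted p = 0.000245). Dll3, a related inhibitor of Notch, gave -0.98 ± 0.11 for E14 against E12 (adjusted p = 0.000106). Of 21 proneural factors 1 fell and none rose, and the list's median change was -0.04. Neurog2, which drives progenitors towards neurons, stood at 936, 876, 1066 and 665 at E12, at 677, 614, 482 and 669 at E13 and at 468, 417 and 438 at E14. Only the CD-1 E12 male lay within the later range, and the change was -0.70 ± 0.15 (adjusted p = 0.0428). Over the 12 ages of the study the mean of Neurog2 was highest at E12, 886 ± 167, after 264 ± 97.1 at E11, and it stood at 441 ± 25.4 at E14. Hes5, Dll1, Nes and Pax6 also had their highest mean at E12. Neurog3, which acts in tuberal progenitors, had a change of -0.11 ± 0.16 (adjusted p = 0.717).

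All 11 tested genes of the sonic hedgehog pathway had negative changes, with a median of -0.37, and 1 was called. Gli2, the pathway's main activator in the nucleus, gave 161, 205, 164 and 136 at E12, 88.2, 82.9, 28 and 94.1 at E13 and 14.8, 32.5 and 13.1 at E14. The groups did not overlap, and the change was -1.62 ± 0.35 (adjusted p = 0.0428). The left-out array of high collagen signal had the highest Gli2 of all, 305, and with it the change was -1.33 (adjusted p = 0.103). Shh itself had a change of -0.16 ± 0.21 (adjusted p = 0.693) and its receptor Ptch1 of -0.25 ± 0.13 (adjusted p = 0.302). Of 24 Wnt pathway genes 3 fell and none rose, against 1.18% and 1.38% of all genes, with a median of -0.16. The secreted amplifier Rspo3 fell by 0.93 ± 0.22 (adjusted p = 0.0471) and the transcription factor Tcf7l2 by 0.73 ± 0.14 (adjusted p = 0.0415). The later signals of Rspo3, 9.4 to 47.5, were all below their array's median. Its probe set was thus not shown to be above background there. The Rspo3 change was -0.46 in C57Bl/6 and -1.35 in CD-1. The secreted inhibitor Sfrp2 fell by 0.66 ± 0.15 (adjusted p = 0.0428). With the left-out array Sfrp2 was no longer called, at -0.49 (adjusted p = 0.249). Tcf7l2 is also a thalamic marker. The 6 thalamic genes summed to at most 867 at E12 and to at most 645 later, and their part in this result was not tested. Of 21 BMP and FGF genes none was called, and the median was -0.18.

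Of 25 tested genes of newborn neurons 4 rose and none fell, against 1.38% and 1.18% of all genes. Positive changes were seen in 23, and the median was 0.30. Without the CD-1 E12 male 14 rose, against 5.35% of all genes. Stmn4, a tubulin-binding protein of growing axons, gave 606, 632, 1320 and 1229 at E12, 885, 958, 2006 and 1789 at E13 and 1882, 1831 and 2193 at E14. The strains were apart at E12 and E13, and at E14 the C57Bl/6 male lay near the CD-1 arrays. The left-out C57Bl/6 E14 female stood at 808, far below them. The Stmn4 change was 0.75 ± 0.17 (adjusted p = 0.0428). Gap43, the growth cone protein, went from 1524 ± 252 to 2579 ± 619 without overlap, a change of 0.71 ± 0.15 (adjusted p = 0.0428). Mapt, the microtubule protein tau, rose by 0.71 ± 0.14 (adjusted p = 0.0415), and Stmn3 by 0.36 ± 0.08 (adjusted p = 0.0473), the latter named after its values were seen. Dcx and Tubb3 were not called. Dcx, which binds microtubules in migrating neurons, stood at 4050 ± 1157 and 4353 ± 1216 (0.14 ± 0.17, adjusted p = 0.687) and Tubb3 at 1975 ± 484 and 2303 ± 582 (0.17 ± 0.15, adjusted p = 0.542). Without the CD-1 E12 male Dcx rose by 0.42 (adjusted p = 0.0234), and another bright probe set of it, with a mean signal of 2343, had a change of 0.47 ± 0.14 in all 11 arrays (adjusted p = 0.104). Of 26 axon guidance genes 1 was called, the ephrin receptor Epha3, which fell by 0.68 ± 0.16 (adjusted p = 0.0456) and lost its call with the left-out array (-0.60, adjusted p = 0.063), and the netrin receptor Dcc had a change of 0.01 ± 0.13 (adjusted p = 0.973).

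The course of 4 lists over E10 to E18 is shown in the plot by embryonic day.

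**Figure D4:**
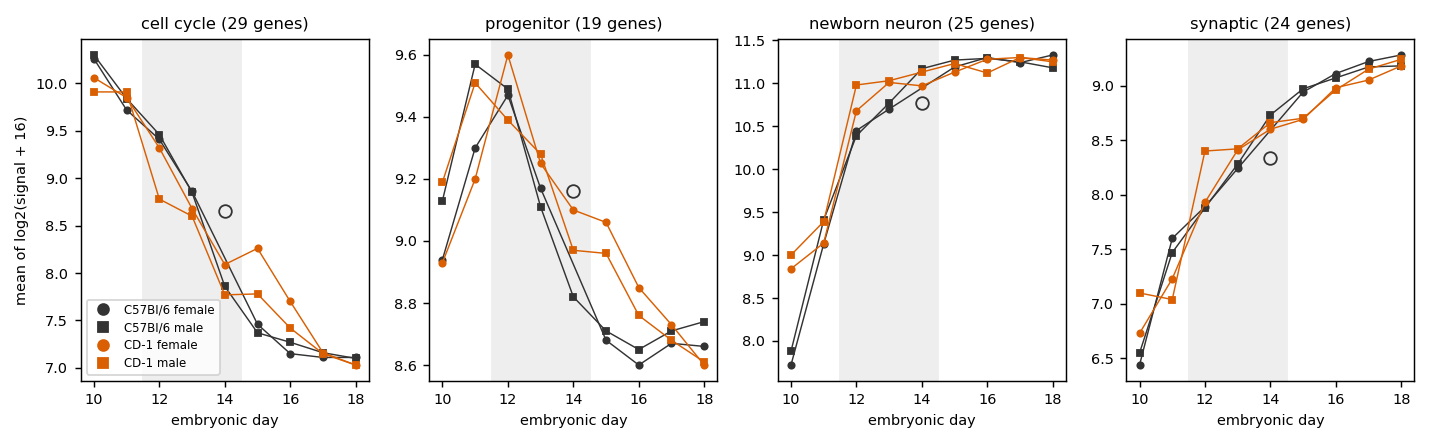
Mean log2(signal + 16) of 4 gene lists (vertical axes) in each array against embryonic day (horizontal axis); grey marks E12 to E14, and the open circle is the C57Bl/6 E14 female left out. The cell cycle list runs from between 8.78 and 9.46 at E12 to between 7.77 and 8.09 at E14, and the newborn neuron list from between 10.39 and 10.98 to between 10.97 and 11.17.

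Of 24 synaptic genes 6 rose and none fell, against 1.38% and 1.18% of all genes, 23 had positive changes and the median was 0.48. Without the CD-1 E12 male 13 rose, against 5.35% of all genes, and between E12 and E14 14 did, against 9.12%. Stx1a, a syntaxin of the vesicle fusion machinery, gave 290, 307, 364 and 471 at E12, 480, 496, 636 and 564 at E13 and 644, 694 and 822 at E14. The groups did not overlap, and the change was 0.74 ± 0.12 (adjusted p = 0.04). Rab3c, a vesicle GTPase, rose by 0.94 ± 0.23 (adjusted p = 0.0488), from 268 and 244 to 1091 in C57Bl/6 by E14 and from 541 and 880 to 1140 and 1393 in CD-1. The synaptotagmin proteins of vesicles, Syt4 and Syt1, rose by 0.83 ± 0.19 (adjusted p = 0.0448) and 0.57 ± 0.10 (adjusted p = 0.04). The vesicle protein Syp (0.64) and the postsynaptic scaffold Dlg4 (0.52) also rose and are named after their values were seen. Doc2b, a calcium sensor of vesicle release and outside the list, rose from 52.7 ± 14.4 to 126 ± 44.2 (1.01 ± 0.22, adjusted p = 0.0428). Snap25, a partner of syntaxin, had a pooled change of 0.50 ± 0.15 (adjusted p = 0.0814), which passed for E14 against E12 at 0.70 ± 0.16 (adjusted p = 0.00997).

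Of 19 ion channel and pump genes 4 rose, against 1.38% of all genes, none fell and the median was 0.61. Without the CD-1 E12 male 11 rose, against 5.35% of all genes, and between E12 and E14 15 did, against 9.12%. The sodium channel subunit Scn3b rose by 0.76 ± 0.18 (adjusted p = 0.0456), the potassium channel Kcnc1 by 0.71 ± 0.16 (adjusted p = 0.0428), the calcium channel subunit Cacna2d3 by 0.71 ± 0.18 (adjusted p = 0.0495) and Atp1b1, a sodium pump subunit named after its values were seen, by 0.67 ± 0.16 (adjusted p = 0.0488). Of the 3 dimmer probe sets of Kcnc1, 1 had a change of -0.04 ± 0.19 (adjusted p = 0.941) and the others of 0.44 ± 0.17 and 0.42 ± 0.21 (adjusted p = 0.183 and 0.295).

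Of 15 GABA genes 2 rose, both receptor subunits, against 1.38% of all genes, and the median was 0.38. Gabra5 gave 36.1, 34, 35.5 and 53.9 at E12, 58.1, 57.3, 93.4 and 115 at E13 and 172, 190 and 203 at E14. All 7 later arrays were above E12, and the change was 1.21 ± 0.27 (adjusted p = 0.0428). Gabra2 rose by 0.82 ± 0.20 (adjusted p = 0.049). The GABA-making enzymes did not pass, Gad1 at 0.72 ± 0.22 (adjusted p = 0.0852) and Gad2 at 0.18 ± 0.14 (adjusted p = 0.467), nor did the vesicular transporter Slc32a1 at 0.11 ± 0.16 (adjusted p = 0.747). Gad1 passed for E14 against E12 (adjusted p = 0.0123) and, at 0.96, without the CD-1 E12 male (adjusted p = 0.0182), and 7 genes of the list rose between E12 and E14, against 9.12% of all genes. All 13 glutamate genes had positive changes with a median of 0.55 and none was called, while 8 rose without the CD-1 E12 male, against 5.35% of all genes, and 8 between E12 and E14, against 9.12%. For the vesicular glutamate transporter Slc17a6 the pooled change was 0.36 ± 0.14 (adjusted p = 0.144), and E14 against E12 gave 0.54 ± 0.15 (adjusted p = 0.025).

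Among 24 neuropeptide genes 3 rose, against 1.38% of all genes, none fell and the median was 0.33. Trh, thyrotropin-releasing hormone, gave 45.7, 15.2, 34 and 9.26 at E12, 67, 63.8, 79.2 and 91.1 at E13 and 106, 103 and 104 at E14. Every later array was above every E12 array, and the change was 1.37 ± 0.23 (adjusted p = 0.04). The E12 signals were all below their array's median, and across the alternative fits described below the change ran from 0.76 to 1.93. The left-out C57Bl/6 E14 female stood at 39.1, within the E12 range, and with it the change was 1.26 (adjusted p = 0.0336). Npvf, which encodes RFamide peptides of the dorsomedial nucleus, rose from 45.9 ± 8.82 to 79.6 ± 13.3 (0.61 ± 0.14, adjusted p = 0.0468), and Resp18, a protein of secretory granules, by 0.81 ± 0.19 (adjusted p = 0.0468). The granule protein Chgb rose as the single call among 12 peptide processing genes, from 406 ± 31.5 to 645 ± 105 (0.64 ± 0.12, adjusted p = 0.04).

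Between E12 and E14, 10 neuropeptide genes rose and 1 fell, against 9.12% and 7.39% of all genes. Avp, vasopressin, stood at 63, 47.4, 53.9 and 45.5 at E12, at 53.6, 67.2, 73.7 and 99.5 at E13 and at 144, 295 and 409 at E14. These 3 E14 arrays were above all others, while the left-out C57Bl/6 E14 female stood at 64.5, within the range of E12 and E13. E14 against E13 gave 1.58 ± 0.24 (adjusted p = 0.00937), and the pooled change of 1.04 ± 0.39 was not called (adjusted p = 0.14). Crh, corticotropin-releasing hormone, was dim at 12.8 ± 2.81 and 38.2 ± 20.6, with no overlap and a pooled change of 0.81 ± 0.25 (adjusted p = 0.0886). E14 against E12 passed for Crh (1.32 ± 0.21, adjusted p = 0.00113), for the tachykinin Tac1 (1.29 ± 0.18, adjusted p = 0.000354), for neurotensin Nts (1.03 ± 0.18, adjusted p = 0.0016), for Pmch, the precursor of melanin-concentrating hormone (1.03 ± 0.23, adjusted p = 0.00689), and for galanin Gal (1.15 ± 0.29, adjusted p = 0.0151). Cartpt, a satiety peptide, was the fall, from 352 ± 69.5 at E12 to 172, 186 and 180 at E14 (-0.84 ± 0.16, adjusted p = 0.0028). Oxt, Sst, Pomc, Npy, Hcrt, Ghrh and Tac2 had pooled changes between -0.06 and 0.27, none of them called.

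None of 10 paraventricular, 13 arcuate and tuberal and 15 mammillary factors was called. Of 9 ventromedial factors 1 rose, Lmo3, a cofactor named in the list of that nucleus, from 271, 296, 216 and 344 at E12 to between 334 and 497 later (0.57 ± 0.14, adjusted p = 0.0488). With the left-out array Lmo3 lost its call (0.52, adjusted p = 0.051). Of 17 preoptic and GABAergic factors 1 fell, Lhx2, a LIM homeodomain factor of forebrain progenitors, from 640 ± 81.7 to 370 ± 109 (-0.81 ± 0.18, adjusted p = 0.0428). Among key members of these lists that were not called, Otp stood at 0.09 ± 0.11 (adjusted p = 0.687), Nkx2-1 at -0.10 ± 0.15 (adjusted p = 0.753), Sim1 at 0.39 ± 0.16 (adjusted p = 0.173), Isl1 at -0.01 ± 0.11 (adjusted p = 0.963) and Nr5a1, the ventromedial nuclear receptor, at 0.16 ± 0.15 (adjusted p = 0.583).

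The mammillary list had the highest median of these groups, 0.42, and 6 of its 15 genes rose in E14 against E12, against 9.12% of all genes. Barhl1, a homeodomain factor of the mammillary region, gave 5.56, 6.5, 85.6 and 157 at E12, 38.8, 5.62, 302 and 203 at E13 and 105, 289 and 268 at E14. C57Bl/6 lay far below CD-1 at E12 and E13. The pooled change was 1.16 ± 0.33 (adjusted p = 0.0697), and E14 against E12 gave 1.62 ± 0.35 (adjusted p = 0.00704). Foxb1, a marker of mammillary body neurons, gave 0.83 ± 0.23 for E14 against E12 (adjusted p = 0.0223). Lhx8, a factor of cholinergic and other ventral forebrain neurons, showed how arrays differed apart from age. It stood at 857 and 823 in the CD-1 E12 arrays, 1019 and 575 in those of E13, 787 in the CD-1 E14 female and 76.5 in the CD-1 E14 male, and between 55.1 and 89.5 in the C57Bl/6 arrays. The map of regional factors sets out each gene in each array.

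**Figure D5:**
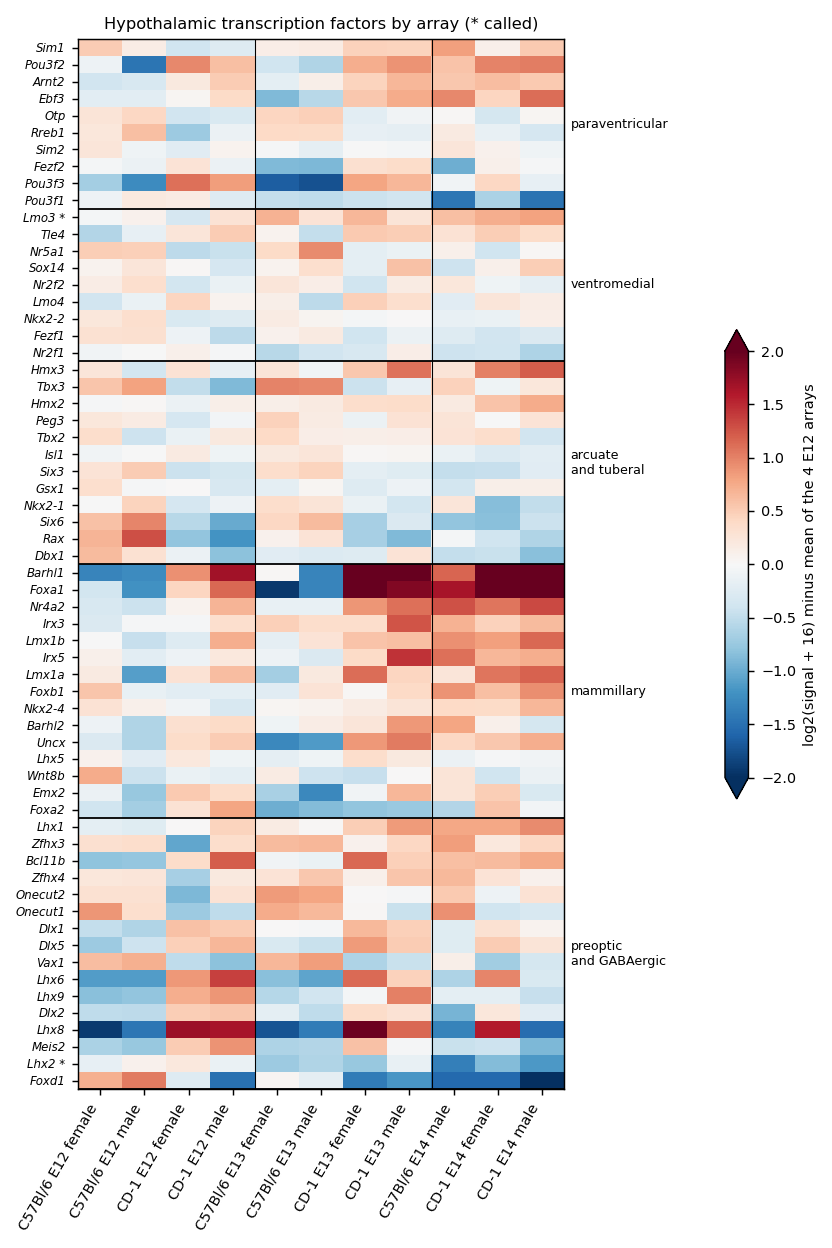
Log2(signal + 16) of hypothalamic transcription factors (rows, grouped by region) in the 11 arrays (columns), as the difference from the mean of the 4 E12 arrays; colours stop at 2 and -2, and an asterisk marks a called gene. Lmo3 and Lhx2 are the called genes, and Lhx8 and Foxa1 differ between the strains and arrays within an age.

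Of 16 hormone receptors none was called. The thyroid receptor Thra stood at 1144 ± 322 and 1672 ± 461 (0.49 ± 0.13, adjusted p = 0.061), and the estrogen receptor Esr1, dim throughout, at 46.1 ± 6.99 and 40.2 ± 31 (-0.27 ± 0.25, adjusted p = 0.571). The orphan receptor Nr2e1, which maintains neural stem cells, was lower in every later array at 160 ± 67.4 against 283 ± 18.5 (-0.83 ± 0.21, adjusted p = 0.0529). Of 15 imprinted genes none was called, Ndn and Magel2 having changes of 0.33 ± 0.10 (adjusted p = 0.0709) and 0.39 ± 0.13 (adjusted p = 0.0973). Of 17 astrocyte genes 1 rose, the gliogenic factor Nfix, which is also made in neurons, by 0.79 ± 0.17 (adjusted p = 0.0428). Nfix stood at 1035 in the left-out array, and with it the call was lost (1.02, adjusted p = 0.0697). Of 13 oligodendrocyte lineage genes none was called. Olig2, a factor of that lineage and of motor progenitors, had a change of -0.86 ± 0.22 that missed the threshold (adjusted p = 0.0505), and Olig1 of 0.44 ± 0.23 (adjusted p = 0.271).

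Some of the genes with the largest called changes belong to no list. Car10, a carbonic anhydrase relative without enzyme activity that acts at synapses, had the largest rise among the called genes that did not overlap and that the rule allows to be named. It gave 58.2, 56.1, 41.2 and 84.3 at E12, 139, 155, 125 and 168 at E13 and 338, 258 and 337 at E14. Each day was above the day before in all arrays, and the change was 1.55 ± 0.27, or 2.92-fold (adjusted p = 0.04). A second probe set of Car10 had a change of 0.11 ± 0.15 (adjusted p = 0.749). Plppr4, a lipid phosphatase relative of growing axons, rose by 1.08 ± 0.21 (adjusted p = 0.0415), Cd200, a membrane ligand of neurons and vessels, by 0.99 ± 0.17 (adjusted p = 0.04), and Nell1, a secreted protein, by 0.97 ± 0.21 (adjusted p = 0.0428). The other rises among the 12 largest were Palm2 (1.08 ± 0.24), Epb41l4b (1.05 ± 0.19), Trank1 (1.02 ± 0.21), Zfp612 (0.99 ± 0.20) and the protocadherin Pcdhb16 (0.98 ± 0.18), with adjusted p between 0.04 and 0.0428. Zfp612 was dim, at 16.7 ± 7.13 and 49.3 ± 11.3, and its change ran from 0.48 to 1.54 across the alternative fits. A still dimmer probe set of Zfp612 had a change of 0.13 ± 0.24 (adjusted p = 0.831).

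Among the falls, Plin3, a lipid droplet coat protein, gave 69.2, 178, 112 and 47.5 at E12 and between 10.1 and 32.9 later, a change of -1.74 ± 0.29 (adjusted p = 0.04). The left-out array stood at 125, and with it the adjusted p was 0.0523. Slc25a13, a mitochondrial aspartate and glutamate carrier, went from 91 ± 12 to 24 ± 14 (-1.50 ± 0.22, adjusted p = 0.04), and Top3a, a topoisomerase of recombination intermediates, from 84.2 ± 10.9 to 34.3 ± 15.7 (-1.10 ± 0.19, adjusted p = 0.04). The later signals of Plin3 and Slc25a13 were all below their array's median, so neither probe set was shown to be above background there. Across the alternative fits described below their changes ran from -2.48 to -0.97 and from -2.06 to -0.84. For some genes the fitted change was larger between E12 and E13 than after E13. Plin3, Top3a and Nell1 had E13 against E12 changes of -1.70 ± 0.33, -1.08 ± 0.21 and 0.99 ± 0.24. None of these was called (adjusted p = 0.0955, 0.0955 and 0.136, limma). Their E14 against E13 changes were -0.10 ± 0.36, -0.05 ± 0.23 and -0.06 ± 0.26, so the timing was not settled. Plin3 was below the array medians by E13, where a further fall could hardly be seen.

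When the 3 ages were fitted apart, E13 against E12 gave no call in limma, with 1813 genes (13.2%, 6.65% higher and 6.59% lower) at an unadjusted p under 0.05. E14 against E12 gave 2259 calls (16.5%), and E14 against E13 gave 202 (1.48%), of which 76 rose (0.555%) and 126 fell. Among the 351 genes called in the pooled comparison, 49 were also called between E13 and E14. The largest falls after E13 were Crabp2, a retinoic acid carrier, by 1.91 ± 0.25 (adjusted p = 0.0082), Dlgap5, a spindle protein, and Tk1, thymidine kinase, by 1.50 each (± 0.24 and 0.32), and the nucleotide-making Rrm2 and the kinesin Kif2c by 1.41 each (± 0.21 and 0.20). Crabp2 stood at 439, 452, 432 and 241 at E12, at 240, 214, 208 and 173 at E13 and at 29.6, 75.6 and 32.5 at E14, with the lowest levels in these 3 E14 arrays, while the left-out C57Bl/6 E14 female stood at 285, above all 4 E13 arrays. The largest rises were Avp, Iffo2 (1.44 ± 0.27), Slc7a14 (1.38 ± 0.32), the glycolytic enzyme Aldoc (1.28 ± 0.18) and the peptide Cck (1.25 ± 0.28), all with adjusted p under the threshold. The E13 signals of Iffo2 and Cck were all below their array's median. Those of Slc7a14 were too, except in the CD-1 E13 female. For these genes the starting level was not shown to be above background, and the size of the rise depends on the added 16. The number of calls between E13 and E14 fell to 1 without the C57Bl/6 E14 male, to 22 without the CD-1 E14 male, to between 64 and 101 without the C57Bl/6 E12 female or any 1 of the E13 arrays, and to 127 without the C57Bl/6 E12 male. It rose to 653 without the CD-1 E12 male.

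The change did not differ detectably between strains. The interaction of strain with stage gave no call in limma, with 538 genes (3.93%) at an unadjusted p under 0.05, and a gene that misses the threshold is not thereby shown to act alike in both strains. Levels differed widely: CD-1 and C57Bl/6 arrays differed in 5814 genes (42.5%) in the fit of stage and strain. The 2 sets of arrays also differed in technical measures. The 3' to 5' ratio of the beta-actin controls was 1.248 to 1.661 in C57Bl/6 and 1.043 to 1.117 in CD-1. The median signal was 68.01 to 79.43 and 47.05 to 57.02. The same ratio for Gapdh overlapped. Strain and such differences between the sets of arrays cannot be told apart. For Pole the change was -1.99 in C57Bl/6 and -1.81 in CD-1, for Plk1 -1.20 and -1.23, for Car10 1.53 and 1.56, and for Trh 1.09 and 1.63. Larger gaps were seen for Rbfox1, 1.32 and 0.54, and for Hbb-bh1, -4.44 and -1.91.

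The neighbouring intervals were read from a fit of 47 arrays, in which they share arrays with the comparison above and are given side by side only. Called genes numbered 3126 for E12 against E11 (22.8%), 856 for E13 and E14 against E12 (6.25%) and 1959 for E15 and E16 against E13 and E14 (14.3%). The median change of the cell cycle list was -0.57, -0.96 and -0.83 in that order. For the newborn neuron list it was 1.53, 0.31 and 0.28, for the synaptic list 0.53 in each interval, and for the progenitor list 0.29, -0.38 and -0.51. Of the 351 genes called above, 270 were also called for E13 and E14 against E12 in this fit. The values for Neurog2 were 1.76, -0.77 and -1.21 (adjusted p = 0.000247, 0.153 and 0.0012), so that its call between E12 and the later days was lost. Other named genes that lost this call included Mapt (adjusted p = 0.192, limma), Stmn4 (0.108), Syt1 (0.0884) and Epha3 (0.241). Lmo3 (0.141), Ptbp1 (0.0662) and Tcf7l2 (0.0697) lost it too. The values for Trh were 0.79, 1.44 and -0.01 (adjusted p = 0.0868, 0.00234 and 0.989).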

How the data were processed

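Each array measured RNA of the hypothalamus and preoptic area on an Affymetrix mouse chip. The deposited values are MAS5 signal intensity per probe set on a linear scale, made with GCOS 1.4 per the submitters' processing notes. In every array their mean between percentiles 2 and 98 was 150. Arrays have no read depth, and their number limits the precision.

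Of 45101 probe sets, 64 controls, 932 with several symbols and 9160 with none were left out of the gene table. Of the 34945 with 1 symbol, 34742 matched RefSeq. A gene was represented by its probe set of highest mean log2 level over all 48 arrays and kept if above the array median in at least 4 of 48 arrays, which left 13689 of 18193 genes. Log2(signal + 16) was fitted in limma 3.58.1 (R 4.3.3) with strain as covariate, an intensity trend and Benjamini-Hochberg adjustment. The same was done with the 3 ages apart and with a strain by stage interaction. The fit was tested on simulated data with 200 changed genes in each of 3 rounds and noise drawn independently for each gene. It recovered 46.3% of the changes of 1.5-fold, 76.6% of those of 2-fold and 97.5% of those of 4-fold. At an adjusted p under 0.05, 6.98% of its calls were wrong.

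Named genes are the 12 largest called rises and falls without overlap, the 3 largest called changes each way per list, the key members of lists, and the 5 largest changes each way between E13 and E14. Predicted transcripts were left out. The 38 lists (582 genes, of which 514 were tested, 26 were below the filter and 42 were not analysed here), the members and the rule were chosen with earlier results of these data known. Alternatives covered the added constant, scaling, filter, covariates, probe sets, array weights, strains, ages and each array left out.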

Additional observations from a re-analysis of the deposited data

Results flagged for a closer look

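Single arrays lay far from the rest of their group for 7 of the 120 groups of gene values checked, and chance gives about 1 in 20 groups. The CD-1 E12 male stood apart for 3 genes. Its Gabra5 signal was 53.9 against 34 to 36.1 in the other E12 arrays, its Mcm5 signal 501 against 957 to 1056, and its Rbfox1 signal 373 against 198 to 209. Ptbp1 was 1296 in the CD-1 E12 female against 1072 to 1099. Among the 7 later arrays, Cd200 was 1689 in the C57Bl/6 E14 male against 888 to 1024. Cenpi was 42.1 in the CD-1 E13 female against 8.07 to 17.9. Zfp612 was 25.1 in the C57Bl/6 E13 female against 47.7 to 57.1. Outside the comparison, the left-out C57Bl/6 E14 female gave 3496 for Col3a1, against 68.4 to 201 in the other E14 arrays.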

How the results depend on the processing

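For E13 and E14 against E12, where 351 genes were called, the count was 598 with the left-out array, 197 with 1 added in place of 16, 224 with strain and sex as covariates, 1034 with array weights, 649 in a fit of all 48 arrays and 856 in one of 47. It was 0 without the filter on dim probe sets (3298 at an unadjusted p under 0.05 in limma), 0 with no covariate (1837), 0 with the 4 combinations of strain and sex as a block (2869), 0 for C57Bl/6 alone (2148) and 0 of 30080 when every probe set was tested (5511). It was 1 for CD-1 alone, 2 for E13 alone and 1637 for E14 alone. Leaving out 1 array gave 0 to 1579. The sign of all 351 genes held in each gene-level fit that kept all of them, and for 337 of 337 under a stricter filter. These fits share arrays with the one that called the genes, so the kept signs are no separate support. For E14 against E13, with 202 calls, the count was 61 with the left-out array, 93 without the filter, 124 with strain and sex, 0 for CD-1 alone (1012), 0 with all 48 arrays (1288) and 42 with 47, and leaving out 1 array gave 1 to 653. The strain interaction gave 0 calls in limma in each fit run (328 to 1135 unadjusted). Among 60 called named genes in 27 fits no sign reversed, and 763 of the values missed the threshold. For Ptbp1, another probe set changed by 0.15, against -0.53. The cause of these moves was not tested. No paired analysis was possible because the replicate numbers stand for strain and sex and no label ties arrays of different ages to an animal; the fit with the 4 combinations as a block is the nearest to it.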
